A study of Mus musculus with 12 samples.

Results

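The genes described here are the MEF2 transcription factors (Mef2a, Mef2c and Mef2d), the salt-inducible kinases (Sik1, Sik2 and Sik3) and the CRTC coactivators (Crtc1, Crtc2 and Crtc3). They were chosen by name as the partners and kinases of class IIa histone deacetylases, and make up 9 of 37583 gene IDs counted. All 9 had counts in every library and were among the 14904 genes tested.

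MEF2 proteins are DNA-binding factors that act as activators or, when bound by a class IIa histone deacetylase (HDAC4, HDAC5, HDAC7 or HDAC9), as repressors. Salt-inducible kinases phosphorylate both the class IIa HDACs and the CRTC proteins, which are then held in the cytoplasm by 14-3-3 proteins. Protein kinase A, downstream of parathyroid hormone, inhibits the kinases, so that HDACs move into the nucleus to meet MEF2 and CRTCs move in to meet CREB. In osteocytes, the cells buried in bone matrix, MEF2C binds a distant enhancer of the sclerostin gene Sost.

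RNA was sequenced from Ocy454 cells, a mouse osteocytic line from long bone that is conditionally immortalised by a temperature-sensitive T antigen and was used here as a single-cell sub-clone. Control cells carry no deletion according to their genotype label (original cells), and DKO cells lack HDAC4 and HDAC5. After culture at the temperature that turns the T antigen off, cells of either genotype stayed static or received 3 h of fluid flow shear stress (FFSS), giving 4 groups of 3 libraries. All control libraries come from one line and all DKO libraries from another, so deletion and line history cannot be told apart, and the labels do not say whether the replicates were separate cultures, so p-values measure the spread between these libraries only.

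The 12 libraries held 17585225 to 19174118 counts, and no pair of replicates agreed within sampling noise. The FFSS library of control replicate 1 stood apart from replicates 2 and 3, with a chi-square per degree of freedom of 45.6 and 41.3, against 4.84 between replicates 2 and 3 and 1.72 to 4.33 in the other 9 pairs. Reads outside annotated genes were 5.10 to 5.21% in control static, 7.07 to 7.14% in DKO static and 7.93 to 8.55% in DKO FFSS libraries. In the control FFSS libraries they were 5.87%, 9.19% and 10.04% for replicates 1, 2 and 3. Hdac4 was at 23.9 to 29.1 CPM (counts scaled to library depth) in control static and 12.1 to 17.0 CPM in DKO static libraries, and Hdac5 at 127 to 141 and 80.2 to 90.8 CPM, so that both targeted genes were lower in DKO static cells without being absent. Under FFSS, Hdac4 was at 30.7 to 42.6 CPM in control and 12.7 to 14.0 CPM in DKO libraries, but Hdac5 was at 71.1 to 90.2 and 92.4 to 93.3 CPM and so was not lower in DKO cells. Of 6 osteocyte markers, 4 averaged over 1 CPM in control static and 5 in DKO static cells, but their summed level was 78.1 to 117 CPM in the former and 3602 to 3689 CPM in the latter. The 7 osteoblast markers summed to 20457 to 24471 CPM and 62471 to 69489 CPM in the same groups. The 6 chondrocyte markers summed to 78.8 to 101 CPM and 1836 to 2325 CPM. A few genes carried these sums: Sost averaged 5.35 CPM in control static and 2063 CPM in DKO static cells, and Col2a1 3.68 and 1819 CPM. Not all markers were higher, with Pdpn at 28.4 and 5.11 CPM and Acan at 5.96 and 4.97 CPM. Summed neuron markers, 1 of 4 of which averaged over 1 CPM, were at 103 to 120 CPM in control static and 8.34 to 10.6 CPM in DKO static libraries, with Snap25 at 0 in both. Summed blood markers, also 1 of 4 over 1 CPM, were at 23.9 to 28.5 and 2.80 to 3.29 CPM, with Hbb-b1 at 0 in both. These marker levels move with genotype beside every difference between lines given here, and their part in it was not tested. Muscle markers, of interest because MEF2 was first described in muscle, summed to 10.6 CPM or less in these 2 groups, and Myog was at 0 in both.

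In unstressed control cells the MEF2 genes were the most abundant of the 9 on a per-length scale. In RPKM (reads per kilobase of exon, scaled to library depth; mean ± SD, n = 3 throughout), Mef2c was at 66.8 ± 3.45, Mef2a at 54.3 ± 2.53 and Mef2d at 17.8 ± 0.55. Below them came Sik3 at 16.5 ± 0.44, Crtc2 at 15.2 ± 0.78 and Sik1 at 11.7 ± 0.29. Crtc3 at 6.03 ± 0.16, Crtc1 at 5.61 ± 0.22 and Sik2 at 4.06 ± 0.081 closed the order. No neighbours in this order overlapped across the 3 control static libraries. In DKO static cells the leading pair did overlap, with Mef2c between 95.1 and 104 RPKM and Mef2a between 90.2 and 99.4 RPKM. In DKO FFSS cells Mef2a (88.1 ± 3.98 RPKM) stood above Mef2c (82.3 ± 1.61 RPKM), and Sik1 (4.20 ± 0.20 RPKM) overlapped Crtc3 (4.22 ± 0.023 RPKM) at the foot of the order.

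**Figure D1:**
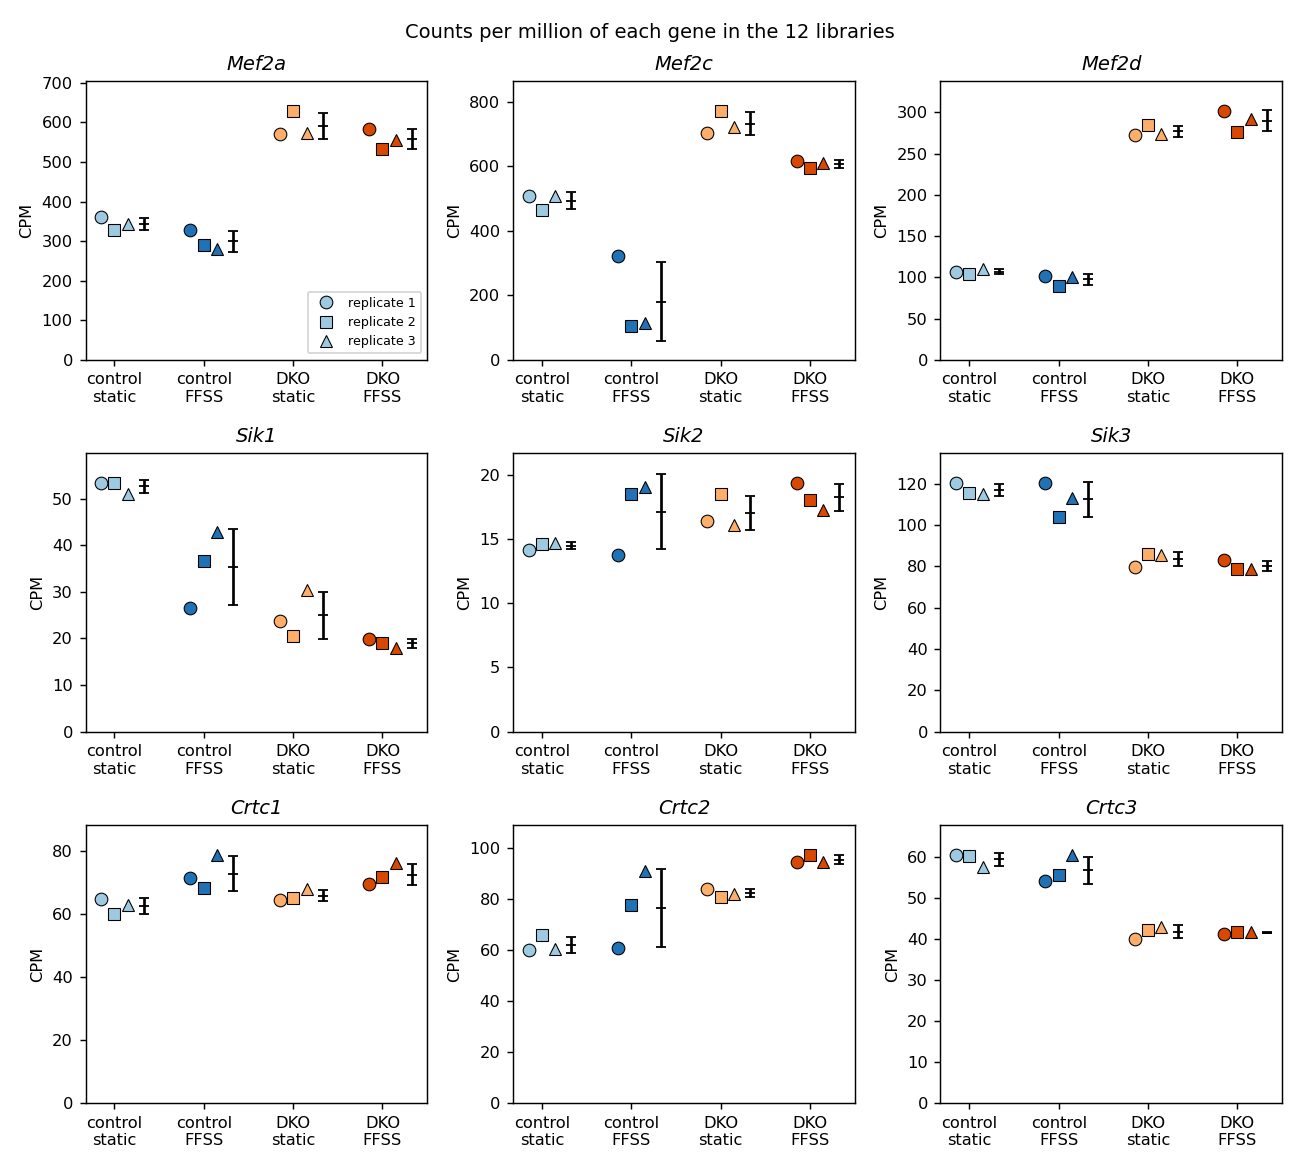
CPM of each of the 9 genes (vertical axis, from 0, a separate scale per gene) in the 4 groups; circles, squares and triangles are replicates 1, 2 and 3, and the bar at the right of each group is the mean ± SD. Mef2c falls from 465 to 509 CPM in control static to 105 to 323 CPM in control FFSS libraries, with replicate 1 above the others, and the DKO libraries of Mef2a and Mef2d lie above all control libraries.

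Mef2c, whose product is the MEF2 protein best known for its action on Sost in osteocytes, was the only member to change more than 2-fold with FFSS in control cells in the fit of all 12 libraries. It lies on the plus strand at chr13:83643033-83806684 (mm9). Its level was 508, 465 and 509 CPM in the control static libraries and 323, 105 and 113 CPM in the control FFSS libraries. All FFSS libraries were below all static libraries, but the fall was shallow in replicate 1 and deep in replicates 2 and 3. The log2 fold change was -1.45 (SE 0.38, edgeR quasi-likelihood test, adjusted p = 0.0170), to 0.36 of the static level.

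How firmly Mef2c could be called differed with the libraries kept and the fit used. Without control FFSS replicate 1, the fall was -2.18 on the log2 scale (adjusted p = 9.04e-22 by edgeR), and without control FFSS replicate 3 it was -1.21 (adjusted p = 0.0508). A fit of the 6 control libraries alone gave -1.45 with an adjusted p of 0.0898. With the share of reads outside genes as a covariate, the edgeR fit gave -0.39 (adjusted p = 0.136). Within groups this share varied most among control FFSS libraries, at 5.87%, 9.19% and 10.04%, so its slope rests largely on replicate 1 there. The share also differed between the static lines without overlap, and was higher with FFSS in each line. Fits with this covariate, here and below, therefore cannot separate the share from genotype or flow. The same shallow and deep libraries were seen in the osteoblast marker sum, which was 7423 to 21095 CPM in control FFSS libraries, 7 of 7 markers being detected in each. Unlike Mef2c, its highest FFSS library lay within the static range of 20457 to 24471 CPM. Col1a1 carried most of the sum, averaging 17134 CPM in control static and 8558 CPM in control FFSS cells. Spp1 went the other way, from 464 to 506 RPKM in control static to 537 to 762 RPKM in control FFSS libraries. The part of these markers in the fall of Mef2c was not tested.

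In DKO cells Mef2c stayed high under flow. It was at 703, 773 and 723 CPM in the static libraries and 618, 595 and 612 CPM in the FFSS libraries. The FFSS libraries again lay below the static ones without overlap, and much closer to them than in control cells. The log2 fold change of -0.27 (SE 0.37) did not pass in the fit of all 12 libraries (edgeR adjusted p = 0.840), whose error includes the spread of the control FFSS libraries. In a fit of the 6 DKO libraries alone it was -0.26 and passed (edgeR adjusted p = 8.42e-05), where 11.2% of all genes tested passed. With the share of reads outside genes as a covariate its sign turned, to 0.16.

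The difference between the flow effects in the 2 lines, DKO minus control, was 1.19 for Mef2c on the log2 scale (SE 0.52) and did not pass (edgeR interaction, adjusted p = 0.210). Without control FFSS replicate 1 it was 1.91 and passed (adjusted p = 9.46e-18), where 37.6% of all genes tested passed. Between lines, static DKO cells had 1.48-fold the Mef2c level of static control cells, a log2 difference of 0.57 (SE 0.37) that did not pass in the fit of 12 libraries (edgeR adjusted p = 0.226) but did in a fit of the 6 static libraries (edgeR adjusted p = 3.68e-12, where 62.7% of all genes passed). With the share of reads outside genes as a covariate this static difference was 1.34 (adjusted p = 3.09e-06 by edgeR), and the interaction was 0.55 (adjusted p = 0.0826). The static lines did not overlap in this share, so the static value of that fit is an extrapolation. Under FFSS Mef2c was 3.38-fold higher in DKO cells in the fit of 12 libraries (log2 1.76, SE 0.38, edgeR adjusted p = 0.00344), with no overlap between groups. This log2 difference was 2.48 without control FFSS replicate 1 and 1.48 without replicate 2.

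**Figure D2:**
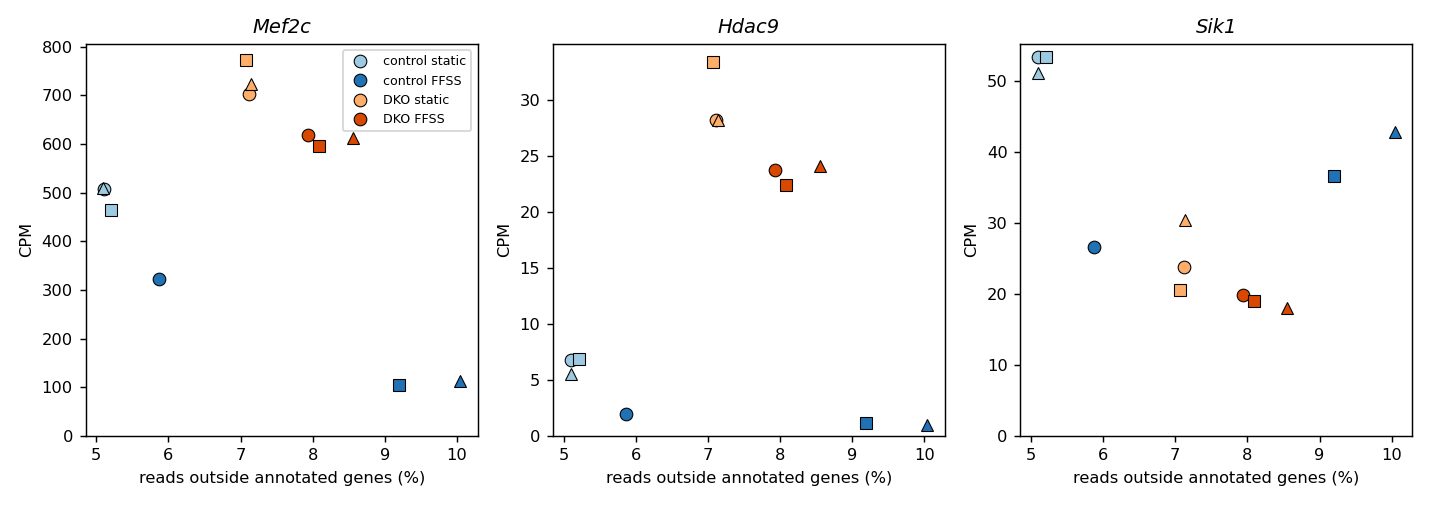
CPM (vertical axis) of Mef2c, Hdac9 and Sik1 against the percentage of reads outside annotated genes (horizontal axis) in the 12 libraries, coloured by group; circles, squares and triangles are replicates 1, 2 and 3. Control FFSS replicate 1, at 5.87%, has more Mef2c (323 CPM) and less Sik1 (26.6 CPM) than replicates 2 and 3.

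Mef2d, at chr3:87946294-87976008 (mm9, plus strand), differed between the lines more clearly than any other member. Its level was 107, 104 and 110 CPM in control static libraries and 272, 284 and 274 CPM in DKO static libraries. No library of either line came near the other line, and the same held under FFSS, with 90.0 to 101 CPM in control and 277 to 302 CPM in DKO libraries. The log2 difference was 1.37 in static cells (SE 0.06, 2.59-fold, edgeR adjusted p = 4.71e-10) and 1.57 under FFSS (SE 0.06, 2.98-fold, adjusted p = 1.31e-10). Part of its exons, 527 of 5985 bases, overlaps 1700113A16Rik on the other strand. FFSS left Mef2d with log2 fold changes of -0.13 in control (adjusted p = 0.0926 by edgeR) and 0.07 in DKO cells (adjusted p = 0.707), neither of which passed. Without control FFSS replicate 1, the change in control cells was -0.16 and passed (edgeR adjusted p = 0.0156).

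Mef2a, at chr7:74376049-74517744 (mm9, minus strand), was also higher in DKO cells. It was at 360, 328 and 342 CPM in control static and 571, 629 and 573 CPM in DKO static libraries. The groups did not overlap, and the log2 difference was 0.78 (SE 0.07, edgeR adjusted p = 4.87e-07), with 0.90 under FFSS (SE 0.07, adjusted p = 1.30e-07). In control cells Mef2a fell slightly with FFSS, by 0.20 on the log2 scale (SE 0.07, edgeR adjusted p = 0.0412), with groups that overlapped at 329 and 328 CPM. This call was lost in 9 of 15 alternatives, among them each fit that left out control FFSS replicate 2 or 3 or any control static library (-0.15 to -0.23). With the share of reads outside genes as a covariate it was -0.02 (edgeR adjusted p = 0.915). In DKO cells its change of -0.08 did not pass (adjusted p = 0.690).

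Per length and summed over the 3 genes, MEF2 transcripts came to 139 ± 6.10 RPKM in control static, 88.0 ± 21.3 in control FFSS, 239 ± 11.1 in static DKO and 219 ± 7.63 in flow-treated DKO cells. The make-up of the family also differed. Mef2c was 47.6 to 48.7% of the summed RPKM in control static libraries and 18.9 to 38.8% in control FFSS libraries. In DKO cells it held 41.2 to 41.8% when static and 37.0 to 38.2% under FFSS, while Mef2d held 18.9 to 22.3% over both. The Mef2d share was 12.4 to 13.1% in control static libraries and 15.1%, 20.0% and 22.1% in control FFSS replicates 1, 2 and 3, so it overlapped between lines under flow. These shares are given as a description.

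**Figure D3:**
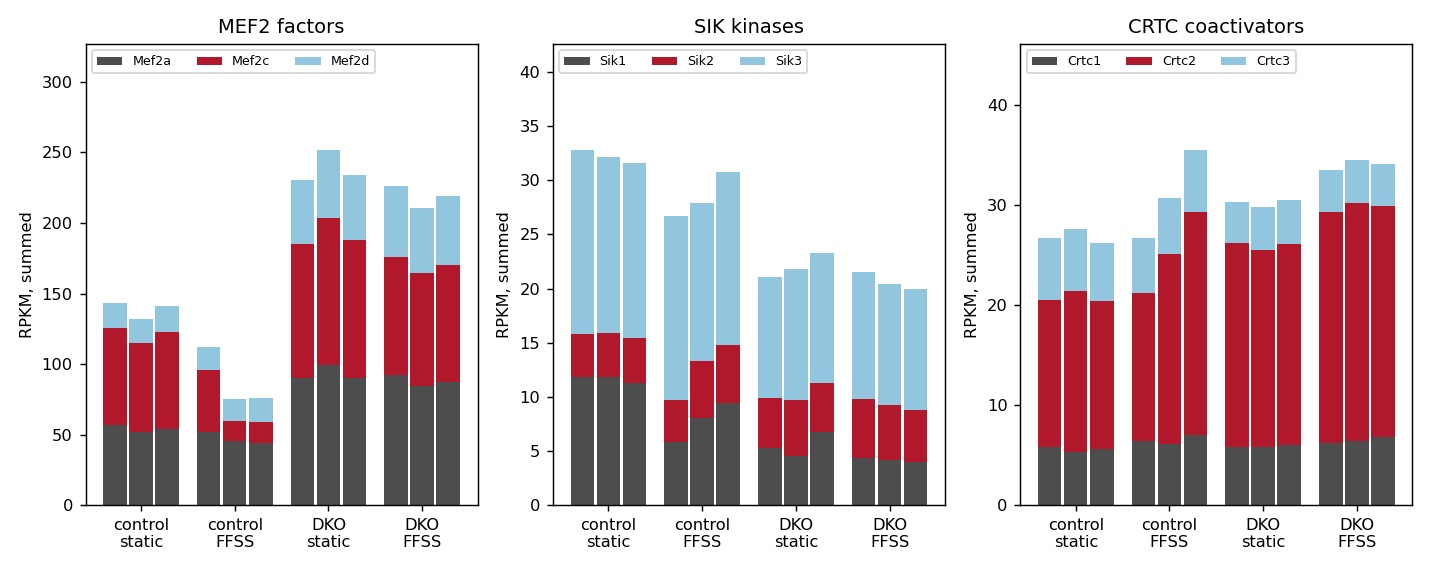
Summed RPKM (vertical axis) of the MEF2, SIK and CRTC genes in each library, the 3 bars of a group being replicates 1, 2 and 3, coloured by gene. The MEF2 sum is lowest in control FFSS replicates 2 and 3, the SIK sum is lower in DKO than in control libraries, and Crtc2 makes up over 55% of the CRTC sum in every library.

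The promoters of the 3 MEF2 genes are shown so that the 3 genes, which differed in the size of their changes with flow and genotype, can be compared. RefSeq (GRCm38.p6) gave windows of 300 bases, 250 before and 50 after a start, for 7 of the 9 members; Sik1 and Crtc2 had none. Positions are counted from the start, the last base before it being -1 and the first base from it 1. Capitals mark a MEF2 site in Mef2a, which spans the start, and GC boxes in Mef2c and Mef2d.
Mef2a, chr7:67372851-67372938, minus strand: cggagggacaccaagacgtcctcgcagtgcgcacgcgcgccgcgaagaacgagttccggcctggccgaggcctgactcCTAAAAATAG
Mef2c, first start, chr13:83503974-83504033, plus strand: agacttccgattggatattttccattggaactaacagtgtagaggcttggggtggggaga
Mef2c, second start, chr13:83523596-83523655, plus strand: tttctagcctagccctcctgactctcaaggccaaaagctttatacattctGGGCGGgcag
Mef2c, last start, chr13:83573547-83573606, plus strand: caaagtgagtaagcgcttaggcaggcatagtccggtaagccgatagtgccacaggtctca
Mef2d, chr3:88142242-88142331, plus strand: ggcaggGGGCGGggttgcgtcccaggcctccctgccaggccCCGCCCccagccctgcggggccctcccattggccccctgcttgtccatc

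The MEF2 site in Mef2a runs from -2 to 8 and was the only match to the MEF2 motif in the 9 windows of the members, a motif held by 0.557% of all 32851 windows. The motif was searched as a strict pattern of letters on both strands: CTA, then A or T in each middle place, then TAG, as in CTAAAAATAG. The GC box, searched as GGGCGG on both strands, is in 35.7% of all windows, with 2 matches in the Mef2d window and 1 at the second Mef2c start. The 3 Mef2c starts spread over 69573 bases, and their windows held 35.7%, 47.0% and 48.3% G and C with 1, 10 and 4 CpG. All other member windows held 62.3 to 80.0%, and the median over all windows was 52.7%. A match is a description of letters and not of binding, and the counts per gene do not tell which Mef2c start was used.

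Sik1, at chr17:31981193-31992737 (mm9, minus strand), encodes the kinase of the family whose transcription is itself induced by cAMP and CREB. It was at 53.3, 53.4 and 51.1 CPM in control static libraries and at 26.6, 36.6 and 42.7 CPM in control FFSS libraries. It was lower in every FFSS library, and lowest in replicate 1, in which Mef2c had moved least. Sik1 fell by 0.57 on the log2 scale (SE 0.16, edgeR adjusted p = 0.0141). Scaled by library totals alone the change was -0.44 and did not pass (adjusted p = 0.0616). With the share of reads outside genes as a covariate it was -1.10, over 2-fold (edgeR adjusted p = 0.000148), and in that fit Mef2c was not.

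DKO cells had less Sik1 to begin with. Its level was 23.7, 20.6 and 30.4 CPM in DKO static and 19.8, 19.0 and 18.0 CPM in DKO FFSS libraries. Every DKO library was below every control library of the same condition. The log2 difference was -1.08 in static cells (SE 0.16, to 0.47 of control, edgeR adjusted p = 9.62e-05) and -0.90 under FFSS (SE 0.16, adjusted p = 0.000482). Without DKO static replicate 2 the static difference was -0.96 and no longer over 2-fold. Without control FFSS replicate 1 the difference under FFSS was -1.07, over 2-fold. The change with FFSS within DKO cells, -0.40 (SE 0.17), did not pass in the fit of 12 libraries (edgeR adjusted p = 0.324). It passed at -0.39 in the fit of the 6 DKO libraries (adjusted p = 0.0472) and at -0.56 with the share of reads outside genes as a covariate (adjusted p = 0.00486). The flow effects in the 2 lines differed by 0.18 (SE 0.23, edgeR interaction, adjusted p = 0.660), so that no difference was detectable for Sik1; with the covariate it was 0.54 (adjusted p = 0.0667).

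Sik3, the broadly expressed kinase of the family at chr9:45820903-46032277 (mm9, plus strand), differed by genotype only in these tests. It was at 120, 115 and 115 CPM in control static and 79.6, 85.8 and 85.4 CPM in DKO static libraries. Groups did not overlap in either condition. The log2 difference was -0.48 in static cells (SE 0.06, edgeR adjusted p = 1.37e-05) and -0.49 under FFSS (SE 0.06, adjusted p = 1.31e-05). With FFSS its log2 fold change was -0.06 in both control (adjusted p = 0.506) and DKO cells (adjusted p = 0.779).

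Sik2, a kinase that acts on both class IIa HDACs and CRTCs, had the fewest counts of the 9, 268 to 386 a library. It lies at chr9:50700917-50817178 (mm9, minus strand), and 16.2% of its 3567 exon bases overlap Ppp2r1b on the other strand. Counted without strand, reads there cannot be assigned to either gene. As ambiguous reads were left out, the level of Sik2 per length may be understated. It was at 14.2, 14.6 and 14.7 CPM in control static and 13.8, 18.6 and 19.1 CPM in control FFSS libraries. Replicate 1 lay below the static libraries and the other two above them, and the log2 fold change of 0.24 (SE 0.11) did not pass (edgeR adjusted p = 0.111). Without control FFSS replicate 1 it was 0.38 and passed (adjusted p = 0.000669). In DKO libraries it was at 16.1 to 19.4 CPM, with a static log2 difference of 0.23 from control (SE 0.11, edgeR adjusted p = 0.104), which passed in the fit of the 6 static libraries (0.24, adjusted p = 0.0139) and was 0.02 with the covariate (adjusted p = 0.905).

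Summed per length, the SIK genes came to 32.2 ± 0.56 RPKM in control static, 28.5 ± 2.08 in control FFSS, 22.1 ± 1.13 in static DKO and 20.6 ± 0.82 in flow-treated DKO cells. Sik1 held 35.8 to 36.8% of the sum in control static, 22.04 to 30.79% in control FFSS, 20.9 to 29.0% in DKO static and 20.0 to 20.6% in DKO FFSS libraries. Sik2 held 12.1 to 13.0%, 14.5 to 18.6%, 19.4 to 23.8% and 24.3 to 25.3% in the same order. The Sik1 ranges of control FFSS and DKO static libraries overlapped.

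The Sik3 and Crtc3 windows are shown because the 2 genes shared a similar genotype difference, and the Sik2 window beside them because Sik2 did not. Capitals mark CRE cores (TGACG) and an E-box (CANNTG) in Sik3, and GC boxes in Sik2 and Crtc3 (GRCm38.p6, RefSeq).
Sik3, chr9:46012680-46012769, plus strand: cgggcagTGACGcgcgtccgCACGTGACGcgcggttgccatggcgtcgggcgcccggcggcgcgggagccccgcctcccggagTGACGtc
Sik2, chr9:51009074-51009173, minus strand: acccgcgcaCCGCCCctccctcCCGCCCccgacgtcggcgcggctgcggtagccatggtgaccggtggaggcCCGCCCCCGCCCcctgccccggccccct
Crtc3, chr7:80688878-80688967, minus strand: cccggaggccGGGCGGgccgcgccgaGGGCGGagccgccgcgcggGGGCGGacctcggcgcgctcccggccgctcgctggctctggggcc

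The CRE core, the short form of the site bound by CREB, occurs 3 times in the Sik3 window, at -133, -116 and -57, and was searched on both strands. The middle match overlaps the E-box, whose letters also hold the core of a HIF site (ACGTG, in 19.6% of all windows). CRE cores are in 20.8% of all windows and E-boxes in 72.3%. Of the 9 member windows, Sik3 and Sik2 held CRE cores and none held the full 8-base CRE, which 1.79% of all windows hold. GC boxes were more frequent in Sik2 (8 matches) and Crtc3 (4 matches) than in the other 5 members with a window.

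The CRTC coactivators, which carry CREB-driven transcription once released from 14-3-3 proteins, all changed by less than 2-fold in each comparison. Crtc1, at chr8:72906254-72963478 (mm9, minus strand), was at 65.0, 60.1 and 63.0 CPM in control static and 71.4, 68.4 and 79.0 CPM in control FFSS libraries. The groups did not overlap, and Crtc1 rose by 0.22 on the log2 scale (SE 0.07, edgeR adjusted p = 0.0194), a call lost in 5 of 15 alternatives, among them the fit of the 6 control libraries (0.22, adjusted p = 0.0959) and that without control FFSS replicate 3 (0.16, adjusted p = 0.0813). The DKO libraries also did not overlap, from 64.7 to 67.9 CPM static and from 69.6 to 76.3 CPM under FFSS, but the log2 fold change of 0.14 did not pass (edgeR adjusted p = 0.379). Crtc1 was the member closest to equal in the 2 lines, with log2 differences of 0.07 in static (adjusted p = 0.370) and -0.01 in FFSS cells (adjusted p = 0.943). With library totals alone the latter was -0.20 and passed (edgeR adjusted p = 0.0211).

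Crtc2, at chr3:90058085-90068047 (mm9, plus strand), was at 60.1, 65.7 and 60.3 CPM in control static and 60.6, 77.5 and 91.0 CPM in control FFSS libraries. Control FFSS replicate 1 lay within the static range and replicates 2 and 3 above it. The log2 fold change of 0.30 (SE 0.11) passed narrowly (edgeR adjusted p = 0.0425), and turned to -0.14 with the share of reads outside genes as a covariate (adjusted p = 0.323). It also lost the threshold without any single control library other than FFSS replicate 1 (0.15 to 0.34). In DKO libraries it was at 80.6 to 83.7 CPM static and 94.2 to 97.3 CPM under FFSS. That change of 0.21 did not pass in the fit of 12 libraries (edgeR adjusted p = 0.410) and did in the fit of the 6 DKO libraries (0.22, adjusted p = 0.00216). Crtc2 was higher in DKO than in control cells, by 0.40 in static (SE 0.11, edgeR adjusted p = 0.00542) and 0.32 under FFSS (SE 0.11, adjusted p = 0.0196). Scaled by library totals alone these were 0.32 (adjusted p = 0.0506) and 0.12 (adjusted p = 0.455), and neither passed. The call under FFSS was also lost in the fit of the 6 FFSS libraries (0.34, edgeR adjusted p = 0.0664) and without DKO FFSS replicate 2 (0.31, adjusted p = 0.0570), and the difference was 0.18 without control FFSS replicate 1 (adjusted p = 0.0132). With the share of reads outside genes as a covariate the static difference was 0.15 (edgeR adjusted p = 0.0619).

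Crtc3, at chr7:87731513-87833763 (mm9, minus strand), was lower in DKO cells. It was at 60.5, 60.1 and 57.6 CPM in control static and 39.9, 42.3 and 43.0 CPM in DKO static libraries. The groups did not overlap, with a log2 difference of -0.51 (SE 0.06, edgeR adjusted p = 7.14e-06), and of -0.45 under FFSS (SE 0.06, adjusted p = 2.40e-05). With FFSS, its log2 fold changes of -0.07 in control (adjusted p = 0.399) and -0.01 in DKO cells (adjusted p = 0.985) did not pass. As a share of the summed CRTC RPKM, Crtc3 went from 22.1 to 23.1% in control static libraries to 13.4 to 14.4% in DKO static libraries, and Crtc2 from 55.1 to 58.3% to 65.8 to 67.5%.

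**Figure D4:**
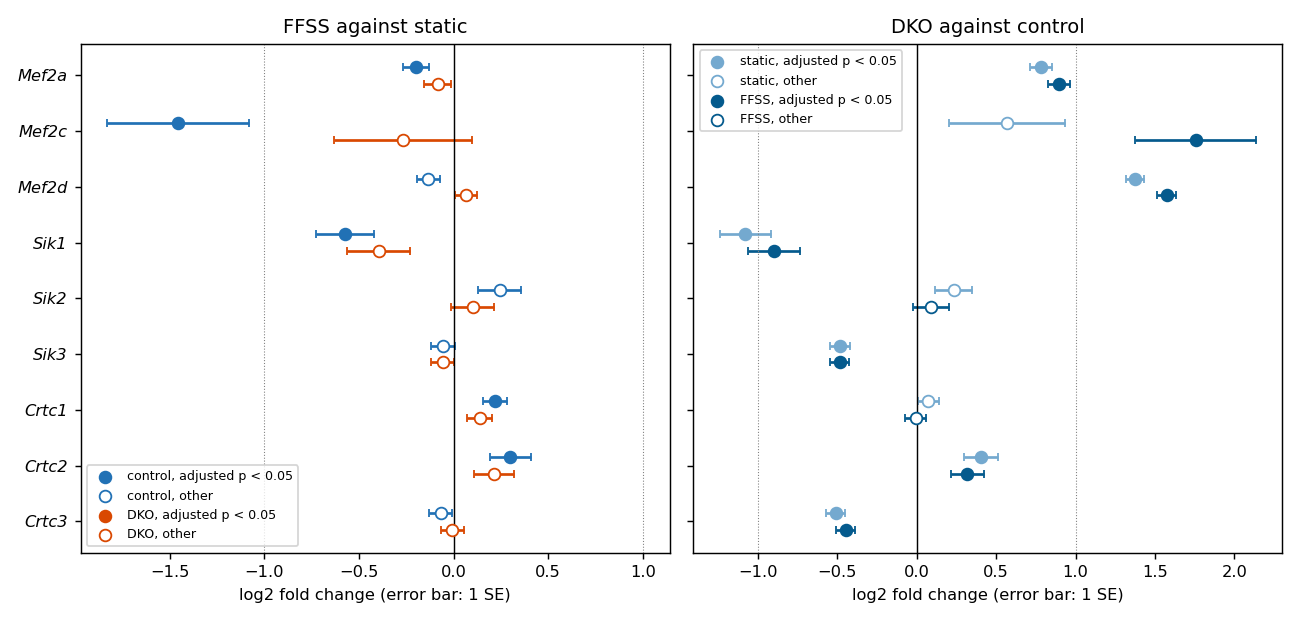
Log2 fold changes of the 9 genes (horizontal axis; points are estimates and bars 1 SE from the edgeR fit of 12 libraries) for FFSS against static in each line and for DKO against control in each condition. Filled points passed at an adjusted p under 0.05; the bars of Mef2c, with an SE of 0.37 to 0.38, are the widest.

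Counted over the 9 members, 5 passed with FFSS in control cells (2 higher, 3 lower), against 35.8% of all genes tested (17.7% higher, 18.1% lower), and 1 of them, Mef2c, also by more than 2-fold, against 5.93%. Groups did not overlap for 4 members, against 41.3% of all genes. Without control FFSS replicate 1 the count was 7 of 9, where 55.0% of all genes passed, and in the fit of the 6 control libraries it was 1, Sik1, where 14.7% passed. In DKO cells no member passed by edgeR in the fit of 12 libraries, against 0.872% of all genes (0.0872% by over 2-fold), and 3 did in the fit of the 6 DKO libraries, where 11.2% passed. Between the DKO groups Crtc1, Crtc2, Mef2c and Sik1 did not overlap, against 29.9% of all genes. Unadjusted p-values under 0.05 were found for 2015 of all 14904 genes in this comparison. No member passed the interaction either, against 3.97% of all genes (0.651% by over 2-fold), but 4 did without control FFSS replicate 1 (Mef2a, Mef2c, Mef2d and Crtc2), where 37.6% of all genes passed.

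Between lines, 6 members passed in static cells, against 54.2% of all genes tested. In DKO, 3 were higher (Mef2a, Mef2d and Crtc2), against 27.0%, and 3 lower (Sik1, Sik3 and Crtc3), against 27.2%. Mef2d and Sik1 did so by more than 2-fold, against 15.3%. Under FFSS 7 passed, against 56.6% of all genes, 4 higher (against 27.0%) and 3 lower (against 29.6%). The additional member was Mef2c, and Mef2c and Mef2d were over 2-fold, against 17.2%. Without control FFSS replicate 1, 3 members were over 2-fold, Sik1 being the third, where 3011 of all genes were. The groups did not overlap for 8 members in static and 7 in FFSS cells, against 69.0% and 58.4%. Read against these shares, the number of members that differed between lines is not a result about the members. In these bulk samples, fewer cells of a kind and less RNA per cell cannot be told apart.

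Around the 9 members, 50 genes of the same pathway were followed, 48 of which were tested. With FFSS in control cells 20 passed (41.7% of those tested, against 35.8% of all genes), 7 higher (14.6% against 17.7%) and 13 lower (27.1% against 18.1%), with a median log2 fold change of -0.06 against 0.01 over all genes. In DKO cells none passed by edgeR in the fit of 12 libraries, against 0.872% of all genes. There 8 had an unadjusted p under 0.05, as did 2015 of all 14904 genes. In the fit of the 6 DKO libraries 10 passed, where 11.2% of all genes did. With the share of reads outside genes as a covariate 5 passed, with the filterByExpr filter 1 and by DESeq2 2. More of all genes also passed with the covariate and by DESeq2, and these counts are not a result about the list. Between lines 27 passed in static cells (56.3% against 54.2% of all genes), 9 higher (18.8% against 27.0%) and 18 lower (37.5% against 27.2%). Under FFSS 29 passed (60.4% against 56.6%), 10 higher (20.8% against 27.0%) and 19 lower (39.6% against 29.6%). The shares in either direction were near those of all genes, while the shares of lower genes were above them in these 3 comparisons, a description for which no test was run.

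Among the pathway genes Hdac9, the class IIa HDAC that is itself a known MEF2 target, moved most with flow. It was at 6.77, 6.82 and 5.53 CPM in control static and at 1.95, 1.17 and 0.990 CPM in control FFSS libraries, where it had 20 to 38 counts. It was lower in all FFSS libraries and fell by 2.22 on the log2 scale (edgeR adjusted p = 5.60e-06, SE 0.19). DKO libraries held 28.2 to 33.4 CPM static and 22.4 to 24.1 CPM under FFSS. The lines differed by 2.23 on the log2 scale in static (adjusted p = 1.27e-08 by edgeR) and by 4.09 in FFSS cells (adjusted p = 3.60e-10).

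The class IIa HDACs thus included the targeted genes Hdac4 and Hdac5 and the 2 that were not, Hdac7 and Hdac9. Hdac4 was higher with FFSS in control cells (log2 0.50, SE 0.13, edgeR adjusted p = 0.00882) and Hdac5 lower (-0.71, SE 0.08, adjusted p = 3.58e-05). Of the 13 other class IIa HDAC kinases tested, 7 were lower and 3 higher in DKO static cells, against 27.2% and 27.0% of all genes. Of the 7, Mark1 and Camk2b were lower by over 2-fold. Mark1, which encodes a microtubule-affinity regulating kinase, had 27 to 44 counts in control static and 1 to 5 in DKO static libraries (log2 -3.25, SE 0.49, edgeR adjusted p = 6.71e-05). Camk2b, a calcium and calmodulin dependent kinase, had 39 to 55 and 14 to 16 counts (log2 -1.53, SE 0.36, adjusted p = 0.00250). Camk1d, another such kinase, was higher in DKO static cells (log2 1.46, SE 0.09, edgeR adjusted p = 1.08e-08), as was Prkar1b, a regulatory subunit of protein kinase A (1.33, SE 0.09, adjusted p = 2.91e-08).

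Under FFSS 5 of the 48 pathway genes tested differed over 2-fold between lines, against 17.2% of all genes. Besides Hdac9, they were Prkar1b at a log2 difference of 1.83 (edgeR adjusted p = 1.80e-09), Camk1d at 1.03 (adjusted p = 2.86e-07), Hdac4 at -1.48 (adjusted p = 5.65e-07) and Mark1 at -4.36 (adjusted p = 4.34e-06). Without DKO FFSS replicate 1 Camk1d was at 0.989 and no longer over 2-fold. Mark1 had 41 to 75 counts in control FFSS and 0 to 4 in DKO FFSS libraries. Its difference ranged from -4.95 to -3.83 leaving out each library. Of the 5 genes of the LKB1 complex and its partners, which switch SIKs on, 1 rose and 1 fell with FFSS in control cells, and of the 7 genes for 14-3-3 proteins 2 rose and 1 fell. Of 4 calcineurin genes, which encode the phosphatase that acts on class IIa HDACs and MEF2, 2 fell. These few genes are read against the 17.7% of all genes that rose and the 18.1% that fell, and none changed over 2-fold.

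Genes known as MEF2 targets were also followed, 12 in all, 10 of them tested. Whether their levels follow MEF2 activity in these cells was not tested. With FFSS in control cells 6 passed, against 35.8% of all genes, 1 higher (against 17.7%) and 5 lower (against 18.1%), with a median log2 fold change of -0.60, against 0.01 over all genes. Besides Hdac9, the genes over 2-fold were Klf4 (-1.16, SE 0.23, edgeR adjusted p = 0.00423) and Klf2 (-1.10, SE 0.25, adjusted p = 0.00893), Krüppel-like transcription factors, and Slc2a4 (-1.32, SE 0.34, adjusted p = 0.00937), a glucose transporter with 8 to 24 counts in control FFSS libraries. Without control FFSS replicate 2 all 3 still passed but were under 2-fold, Klf4 at -0.99, Klf2 at -0.90 and Slc2a4 at -0.99. Sost, at -0.24, did not pass (edgeR adjusted p = 0.878), and its control groups overlapped. It had 28 to 236 counts in control static and 2 to 221 in control FFSS libraries. With so wide a spread among replicates, this estimate cannot tell whether Sost changed with flow. Klf2 was at 1394 to 1529 counts in control static and 521 to 1092 counts in control FFSS libraries, replicate 1 again being the highest. With reads outside genes as a covariate Klf2 (-0.27, edgeR adjusted p = 0.0676) and Slc2a4 (-0.61, adjusted p = 0.401) did not pass, and in the fit of the 6 control libraries Klf2 did not (-1.10, adjusted p = 0.0661). In DKO cells none of the 10 passed by edgeR in the fit of 12 libraries, against 0.872% of all genes, and 1 had an unadjusted p under 0.05. In the fit of the 6 DKO libraries 2 passed, where 11.2% of all genes did.

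In static cells 8 MEF2 targets differed between lines, against 54.2% of all genes, 5 higher (against 27.0%) and 3 lower (against 27.2%) in DKO, with a median of 0.76 against 0.01 over all genes. The largest differences were those of Col10a1, a collagen of hypertrophic cartilage, at a log2 value of 8.91 (SE 0.59, edgeR adjusted p = 1.83e-06), and Sost at 8.59 (SE 1.03, adjusted p = 9.80e-05). Sost had 28, 41 and 236 counts in control static and 36753 to 38134 counts in DKO static libraries, so its level in control cells varied widely among replicates. Without control static replicate 3, which had the most counts of both genes among the static controls, Col10a1 was at 10.46 and Sost at 10.15. Myom1, a sarcomere protein, was at 1.76 (SE 0.21, adjusted p = 4.42e-05 by edgeR), Nr4a1, an orphan nuclear receptor, at 1.33 (SE 0.12, adjusted p = 5.35e-07), and the AP-1 subunit Jun at -1.43 (SE 0.12, adjusted p = 4.20e-07). Under FFSS 7 passed, against 56.6% of all genes, 6 higher (against 27.0%) and 1 lower (against 29.6%), among them Sost at 8.70 (adjusted p = 9.02e-05), Col10a1 at 8.34 (adjusted p = 2.21e-06), Myom1 at 2.67 (adjusted p = 2.63e-06), Nr4a1 at 1.56 (adjusted p = 1.24e-07) and Jun at -1.74 (adjusted p = 6.31e-08). Leaving out control FFSS replicate 1 or 2 gave 10.63 or 8.12 for Sost and 9.11 or 7.84 for Col10a1.

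Genes known as CREB or CRTC targets, 16 in all with Sik1 among them, were followed in the same way, and 15 were tested. With FFSS in control cells 5 rose (33.3% of those tested, against 17.7% of all genes) and 1, Sik1, fell (6.67% against 18.1%), with a median of 0.44 against 0.01 over all genes. Pde4b, a phosphodiesterase that breaks down cAMP, was at 188 to 219 counts in control static and 492 to 544 counts in control FFSS libraries, and rose by 1.25 on the log2 scale (edgeR adjusted p = 9.01e-07, SE 0.09). Tnfsf11, the gene for the osteoclast factor RANKL, was at 16 to 21 and 63 to 72 counts, and rose by 1.76 (adjusted p = 4.83e-05, SE 0.20). Neither passed in DKO cells by edgeR in the fit of 12 libraries. Sik1, by contrast, is on the same list and moved the other way in control cells.

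Between lines, 10 CREB or CRTC targets passed in static cells (66.7% of those tested, against 54.2% of all genes), 8 higher (53.3% against 27.0%) and 2 lower (13.3% against 27.2%) in DKO, with a median of 0.85 against 0.01 over all genes. They were led by Nr4a3 (log2 3.48, SE 0.15, edgeR adjusted p = 4.10e-10), Tnfsf11 (3.75, SE 0.18, adjusted p = 1.20e-09), Pde4b (1.38, adjusted p = 1.27e-08), Nr4a2 (1.80, adjusted p = 2.77e-07) and Ppargc1a (2.98, adjusted p = 1.45e-06), a coactivator of mitochondrial genes. Ppargc1a had 7 to 13 counts in control static libraries. Nr4a1, given above with the MEF2 targets, is on this list too. Under FFSS 10 passed (66.7% against 56.6%), 7 higher (46.7% against 27.0%) and 3 lower (20.0% against 29.6%), led by Nr4a3 (2.94, edgeR adjusted p = 1.23e-09), Tnfsf11 (2.04, adjusted p = 5.58e-08), Nr4a2 (1.66, adjusted p = 4.91e-07), Rgs2 (3.25, adjusted p = 1.77e-06) and Ppargc1a (1.92, adjusted p = 4.50e-05).

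The genes whose pattern over the 12 libraries was nearest to a member were ranked by the root mean square difference of their centred log2 CPM. For Mef2c they were Rnf144b at 0.0919, Sp7 at 0.125 and Jag2 at 0.135, beside a standard deviation of 0.98 for Mef2c itself; Sp7 is also one of the osteoblast markers. For Sik1 they were Ccdc57 at 0.141, Hk2 at 0.142 and Plekha2 at 0.162, and for Mef2d Kirrel at 0.0577, Pmvk at 0.0770 and Trp53inp2 at 0.0806. The Sik1 neighbours were less close, relative to its own standard deviation of 0.61, than those of Mef2c. These rankings describe likeness over the same libraries and carry no test.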

How the data were processed

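The deposited files hold raw counts per gene, which the authors made by aligning reads with STAR to mm9 and counting with HTSeq without regard to strand, per the labels and files. Gene IDs were named from the mm9 annotation (37168 of 37583 matched). Where 2 counted IDs shared a listed symbol (Hdac4, Pde4d and Runx2), only the one with the greater exon length was used. Genes at 0 counts in 2 or more of 12 libraries were removed. edgeR 4.0.16 in R 4.3.3 fitted the 4 groups together (TMM scaling, robust quasi-likelihood), with Benjamini-Hochberg adjustment over all 14904 genes tested; a gene passed at an adjusted p under 0.05 and was called at over 2-fold as well. SE is the log2 fold change divided by the square root of F. CPM used TMM-scaled totals, and RPKM used merged exon length. The script was tested on simulated data. The totals of 17585225 to 19174118 counts limit Sik2 most among the members. Reads outside genes and ambiguous reads were left out of totals.

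All members were described. Of the pathway and target lists, genes called over 2-fold were named, up to 6 a list and comparison by adjusted p. Genes named for being nearest in pattern were the 3 nearest to Mef2c, Sik1 and any other member called. Hdac4, Hdac5 and other genes outside this rule are named for the design or after their values were seen. Members and lists were chosen with earlier results of these data known. Comparisons that share libraries are not independent. Alternatives were other scalings, filters and tools (DESeq2 1.42.0 and limma-voom 3.58.1), a replicate block, a covariate for reads outside genes, fits of 6 libraries and leaving out each library.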

Additional observations from a re-analysis of the deposited data

Results flagged for a closer look

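For 6 genes of the pathway and target lists the flow effects of the 2 lines differed by the edgeR interaction (DKO minus control, log2), against 3.97% of all 14904 genes. They were 4 of 48 pathway genes tested, 1 of 10 MEF2 targets and 2 of 15 CREB and CRTC targets, Hdac9 being in 2 lists. Hdac9 differed by 1.86 (SE 0.23, adjusted p = 0.000953), with a fall in control cells to fewer than 40 counts a library. Hdac5, a targeted gene, differed by 0.85 (SE 0.11, adjusted p = 0.00152), Camk2d by 0.39 (SE 0.10, adjusted p = 0.0420) and Prkar1b by 0.50 (SE 0.13, adjusted p = 0.0459). Camk2d and Prkar1b lie close to the threshold. Leaving out each library, 2 to 17 pathway genes passed the interaction, 17 of them in a fit where 37.6% of all genes passed. Pde4b differed by -1.28 (SE 0.12, adjusted p = 0.000204) and Tnfsf11 by -1.71 (SE 0.24, adjusted p = 0.00236), both having risen with FFSS in control cells.

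A check for opposite directions covered the members and those list genes called over 2-fold in any comparison or passing the interaction. Other list genes were not checked. For another 3 of the genes checked, every FFSS library of one line lay above the mean of its static libraries. Every FFSS library of the other line lay below its own static mean. The interaction did not pass for any of them: it was 1.24 for Klf2 (edgeR adjusted p = 0.0825), -0.43 for Camk1d (adjusted p = 0.0727) and -0.62 for Hdac4 (adjusted p = 0.0817). No member of the MEF2, SIK or CRTC families met either condition. Groups of 3 are too small for the test of a library far from its group.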

How the results depend on the processing

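For the 9 members, 45 log2 fold changes were recomputed in 720 alternatives: 638 kept direction and side of the threshold, 30 lost the threshold, 15 passed it newly and 37 changed sign. No genotype difference of Mef2a, Mef2d, Sik1, Sik3 or Crtc3 changed sign or lost its threshold. The cause was not tested for any change given here. Library totals alone moved the median of all genes with FFSS in control cells from 0.01 to 0.13 on the log2 scale, and that between lines under FFSS from -0.05 to -0.25. Depth limits Sik2 most, which had the fewest counts of the members. DESeq2 gave no adjusted p for Sost between lines.

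In the fits of 6 libraries, genes passing with FFSS in control cells were 2373 instead of 5338 (438 instead of 884 over 2-fold), and in DKO cells 1787 instead of 130 (46 instead of 13 over 2-fold). Members passing were 1 instead of 5 in control (0 instead of 1 over 2-fold) and 3 instead of 0 in DKO cells, and pathway genes 8 instead of 20 and 10 instead of 0. With reads outside genes as a covariate, 2290 genes passed in control (198 over 2-fold) and 1483 in DKO cells (50 over 2-fold). Members then numbered 1 and 1, and pathway genes 11 and 5. DESeq2 passed 400 genes and 2 pathway genes for FFSS in DKO cells, and for the interaction 1124 genes instead of 591 (175 instead of 97 over 2-fold) and 7 pathway genes instead of 4. filterByExpr passed 1 pathway gene for FFSS in DKO cells and 2 for the interaction.

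The replicate numbers did not pair the libraries: same-numbered deviations had a mean correlation of 0.00226 over 18 pairs, from -0.0603 to 0.0631. With the replicate as a block, 70 genes instead of 130 passed for FFSS in DKO cells, and no call of a member changed.

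Leaving out each library in turn, genes passing with FFSS in control cells ranged from 3634 to 8235 (494 to 1696 over 2-fold), in DKO cells from 13 to 35 (8 to 12 over 2-fold), and for the interaction from 180 to 5634 (42 to 1138 over 2-fold). Members passing with FFSS in control cells ranged from 1 to 7 (0 to 1 over 2-fold), for the interaction from 0 to 4 (0 to 1 over 2-fold), and members over 2-fold between static lines from 1 to 2. Between lines under FFSS, members over 2-fold ranged from 2 to 3. Pathway genes ranged from 11 to 33 (1 to 3 over 2-fold) with FFSS in control cells and from 2 to 17 (1 to 2 over 2-fold) for the interaction. The highest values for FFSS in control cells and for the interaction all came without control FFSS replicate 1. The lowest counts of members passing and of genes over 2-fold with FFSS in control cells came without control FFSS replicate 3.

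Sign changes were mostly of values near 0. For Sik3, the interaction of -0.00232 became 0.0119 by DESeq2, 0.000872 by limma-voom, 0.00794 without a filter and 0.0117 with RLE scaling, and -0.0573 to 0.0502 leaving out each library. Its change with FFSS in control cells became 0.0664 with library totals and 0.0557 with the covariate. For Crtc1 under FFSS, the difference between lines of -0.00642 became 0.00750 by DESeq2, 0.0153 in the fit of 6 libraries, 0.00737 without a filter and 0.00749 with RLE scaling, and -0.0520 to 0.0547 leaving out each library; its static difference was -0.00942 with library totals. For Crtc3, library totals gave 0.0583 with FFSS in control, 0.00475 in DKO cells (-0.0361 to 0.0155 leaving out each library) and -0.0535 for the interaction. For Sik2, the difference between lines under FFSS was -0.112 with library totals and -0.0448 to 0.174 leaving out each library. The covariate gave Sik2 -0.124 in control, -0.0172 in DKO cells and 0.107 for the interaction. It gave Crtc2 -0.137 in control cells and 0.212 for the interaction (-0.226 to 0.0594 leaving out each library), Mef2c 0.156 in DKO cells and Mef2a -0.00470 for the interaction.

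Counts of target genes were recomputed in the same alternatives after the data were seen. Of 10 MEF2 targets tested, 3 instead of 6 passed with FFSS in control cells, both in the fit of 6 libraries and with the covariate. In DKO cells 2 and 1 passed instead of 0. In the fits of 6 libraries 14.7% of all genes passed in control and 11.2% in DKO cells. For the interaction 3 MEF2 targets instead of 1 passed by DESeq2, by limma-voom and with the covariate. Leaving out each library gave 1 to 7. The 7 came without control FFSS replicate 1, where 37.6% of all genes passed, against 3.97% in the fit of 12 libraries. CREB and CRTC targets passing in DKO cells were 2 instead of 0 in both the 6-library and the covariate fit. Leaving out each library gave 4 to 11 instead of 6 in control cells and 2 to 8 instead of 2 for the interaction. The highest of each came without control FFSS replicate 1, where 55.0% and 37.6% of all genes passed. These counts are not a result about the targets.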
